A study of Daphnia magna with 20 samples.

Results

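A set of 4 rows of a whole-animal transcriptome of the water flea Daphnia magna, named after patterning signals and a patterning factor, were followed across 20 RNA libraries. They were notch/arp2_g5857 (Notch g5857), delta and notch epidermal growth factor-related (Delta/Notch EGF) receptor, wnt-2b (Wnt-2b) and brother of odd with entrails limited/arp2_g9170 (Bowl g9170). The 4 rows were picked by name from the 7784 of the table, after earlier results of these data were known, so their differences between groups are described here without a test. All 4 were among the 7564 names that passed the filter on low values.

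Animals were exposed for 21 days under static renewal to ethylene acrylic acid copolymer particles at 2.3e12 per litre (nano_high) or 2.3e11 per litre (nano_low), to fumed silica at 2.3e12 (silica), or to the vehicle only (control). The unit of the silica concentration is not repeated in the series' text. Each group held 5 libraries, made from pooled whole animals. The stage is labelled as newborn although exposure lasted 21 days, so the age at sampling is uncertain, and neither the size of a pool nor the use of separate cultures is given. P-values therefore measure the spread between these samples, which may be technical. In whole animals, fewer cells of a type and less RNA per cell cannot be told apart.

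Notch is a receptor in the cell membrane that is bound by Delta or Serrate on a neighbouring cell. Its inner part is then cut free and joins Suppressor of Hairless and Mastermind in the nucleus to switch on the Enhancer of split repressors. Wnt proteins are secreted signals that bind Frizzled receptors and keep beta-catenin, called Armadillo in flies, from being destroyed by a complex of APC, Axin and GSK-3, so that it can act with TCF factors. Bowl is a zinc finger factor of the odd-skipped family, which in Drosophila acts in the gut and at leg joints, there downstream of Notch.

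Libraries held 39087882 to 95906857 estimated counts in nano_high, 9689064 to 40227246 in nano_low, 7912434 to 54862334 in silica and 11918440 to 26562258 in control. Every nano_high library was deeper than every control library. The widest spread among libraries was the first principal component, with 38.9% of the variance, and it ran across the groups. Libraries 4 and 5 of nano_high, 1 of nano_low, and 4 and 5 of control lay below -30 on it, and no silica library did. Values below are CPM, counts per 1000000 of the library total after TMM scaling, and the level of one row is not compared with that of another, since lengths are unknown.

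Both polymer groups and silica had less Wnt-2b and, in the mean, more Bowl g9170 than control. Wnt-2b was 2.16-fold lower and Bowl g9170 was 2.63-fold higher in nano_high than in control. The Delta/Notch EGF receptor was 2.52-fold higher in nano_high, and Notch g5857 was highest in nano_high and lowest in silica. Against control, 3 of the 4 rows in nano_high had libraries that did not overlap with those of control, where 8.8% of all 7564 names tested did the same. The 3 comparisons with control share the same 5 control libraries, so their values stand side by side and are not independent.

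**Figure D1:**
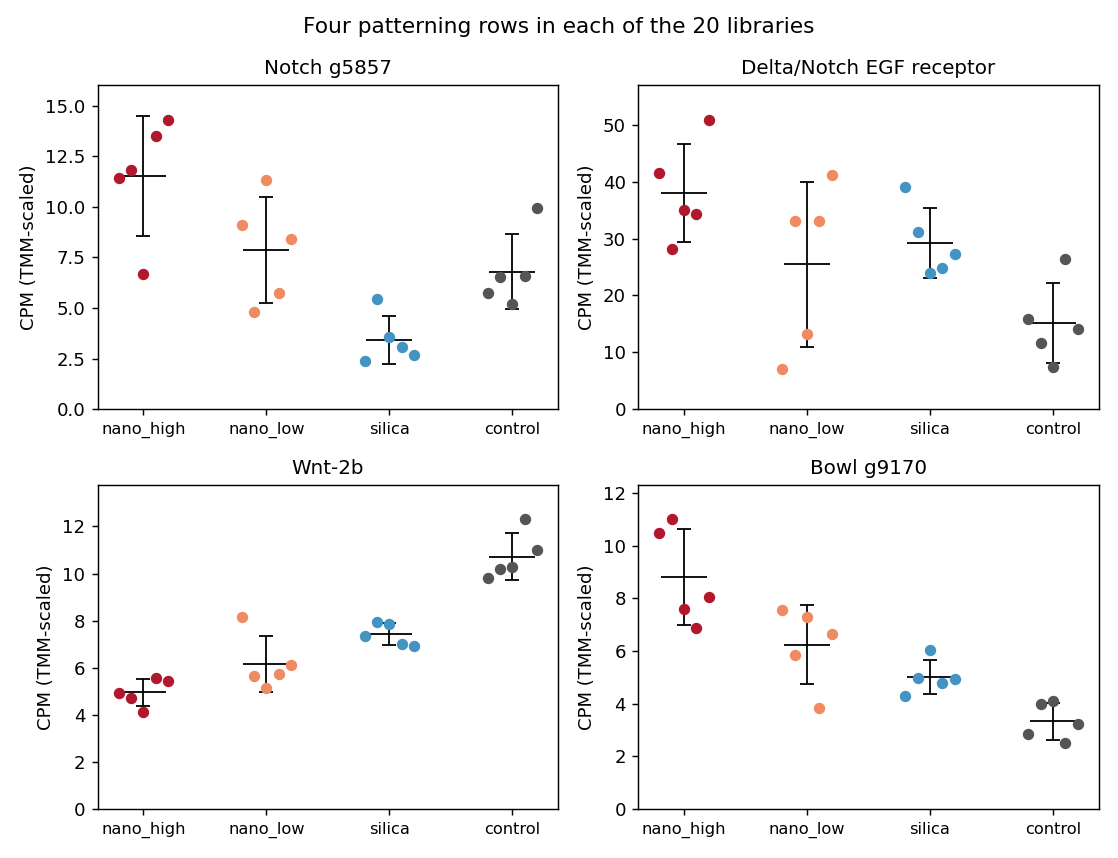
CPM (TMM-scaled, vertical axes from 0) of the 4 rows in each of the 20 libraries, by group. Points are libraries, and the horizontal mark and bar give the mean and SD (n = 5). Every Wnt-2b point of nano_high, nano_low and silica is below the lowest control value of 9.81 CPM, and every Bowl g9170 point of nano_high is above the highest control value of 4.12 CPM.

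Among the signals, Notch g5857 had 11.4, 11.8, 6.67, 13.5 and 14.3 CPM in nano_high, 9.12, 4.79, 11.3, 5.73 and 8.42 CPM in nano_low, 2.39, 5.42, 3.58, 3.06 and 2.67 CPM in silica, and 5.72, 6.53, 5.18, 6.57 and 9.93 CPM in control. In nano_high 4 of 5 libraries were above every control library, and in silica 4 of 5 were below every control library. Behind these values stood 20 to 1159 counts per library. The means were 11.5 ± 2.97 CPM in nano_high, 7.87 ± 2.63 CPM in nano_low, 3.42 ± 1.20 CPM in silica and 6.79 ± 1.85 CPM in control (SD, n = 5 each). Ordered by mean, with nano_high highest, then nano_low, control and silica, each group overlapped with its neighbour. The ends of the order did not overlap, since every nano_high library was above every silica library. Between these groups 3 of the 4 rows did not overlap, 2 of them higher and Wnt-2b lower in nano_high, where 7.79% of all names did not overlap in either direction. The log2 fold change was 1.75 (SE 0.28) for nano_high over silica, a 3.36-fold difference. It was 0.77 (SE 0.27) for nano_high, 0.21 (SE 0.27) for nano_low and -0.98 (SE 0.28) for silica, each over control.

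The row called notch, without a tag, is the nearest in name and may share reads with Notch g5857. It averaged 117 ± 38.2 CPM in nano_high, 116 ± 43.8 CPM in nano_low, 58.0 ± 13.4 CPM in silica and 130 ± 47.9 CPM in control. Its 5 silica libraries, at 39.8 to 77.1 CPM, were all below the 5 control libraries at 78.6 to 190 CPM. The log2 fold change of silica over control was -1.16 (SE 0.28), which missed the threshold of 0.05 (edgeR adjusted p = 0.0590). Against silica, notch was higher in nano_high (log2 fold change 1.01 with an SE of 0.28, edgeR adjusted p = 0.0446). Both rows were thus lowest in silica, while nano_high had a mean near that of control for notch (log2 fold change -0.15, edgeR adjusted p = 0.784). The count of Notch g5857 per count of notch, a ratio that does not depend on scaling, was 0.101 ± 0.0167 in nano_high, 0.0701 ± 0.0201 in nano_low, 0.0601 ± 0.0199 in silica and 0.0556 ± 0.0161 in control. Its range was 0.0763 to 0.122 in nano_high, against 0.0392 to 0.0727 in control, without overlap. The remaining row of this name, notch/arp2_g8244, averaged 36.8 ± 17.1 CPM in nano_high, 32.0 ± 10.8 CPM in nano_low, 42.5 ± 9.54 CPM in silica and 29.7 ± 12.1 CPM in control, and was not called in any comparison.

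The Delta/Notch EGF receptor carries the name of a mammalian membrane protein with EGF repeats that is found on neurons and can bind Notch. It had 41.6, 28.2, 35.1, 34.4 and 50.9 CPM in nano_high, 7.14, 33.0, 13.2, 33.0 and 41.1 CPM in nano_low, 39.1, 31.2, 23.9, 24.9 and 27.2 CPM in silica, and 15.8, 11.7, 7.48, 26.4 and 14.1 CPM in control. The lowest nano_high library, at 28.2 CPM, was above the highest control library, at 26.4 CPM. Nano_low was split, with libraries 1 and 3 inside or below the control range and the others above it. Counts per library ran from 129 to 2966. Means in falling order were 38.0 ± 8.59 CPM in nano_high, 29.3 ± 6.17 CPM in silica, 25.5 ± 14.5 CPM in nano_low and 15.1 ± 7.07 CPM in control, and each group overlapped with its neighbour. Over control, the log2 fold change was 1.33 (SE 0.38) for nano_high, 0.76 (SE 0.38) for nano_low and 0.96 (SE 0.38) for silica. That of nano_high was the 78th highest of 7564. The row delta and notch epidermal growth, a shorter form of the same description, averaged 14.5 ± 8.48 CPM in nano_high, 13.8 ± 6.43 CPM in nano_low, 15.7 ± 1.93 CPM in silica and 8.71 ± 4.50 CPM in control. Its log2 fold changes over control were 0.73 for nano_high, 0.67 for nano_low and 0.85 for silica, with none called (edgeR adjusted p = 0.313, 0.501 and 0.241).

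Wnt-2b, the secreted ligand among the rows, had 4.92, 4.72, 4.11, 5.57 and 5.43 CPM in nano_high, 8.16, 5.64, 5.13, 5.73 and 6.12 CPM in nano_low, 7.36, 7.96, 7.87, 6.99 and 6.94 CPM in silica, and 9.81, 10.2, 10.3, 12.3 and 11.0 CPM in control. All 15 libraries of the exposed groups were below all 5 control libraries. Of all 7564 names tested, 51 (0.674%) were lower in this way and 17 (0.225%) were higher. Counts were low, at 50 to 480 per library. Means in rising order were 4.95 ± 0.587 CPM in nano_high, 6.16 ± 1.17 CPM in nano_low, 7.42 ± 0.478 CPM in silica and 10.7 ± 0.982 CPM in control. Nano_high and nano_low overlapped, as did nano_low and silica, there through library 1 of nano_low, which was above every silica library. Silica and control did not overlap. The log2 fold change over control was -1.11 (SE 0.13) for nano_high, -0.79 (SE 0.13) for nano_low and -0.53 (SE 0.13) for silica. Nano_high was below silica in every library (log2 fold change -0.59, SE 0.13), while nano_high over nano_low was -0.32 (SE 0.13) with overlap.

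The 10 other rows named as Wnt ligands did not pass the test in any of the 5 comparisons. Among all names, 10.1% passed for nano_high, 0.621% for nano_low and 0.701% for silica, each against control. The share was 5.35% for nano_high against silica and 0% for nano_high against nano_low. The 0 of 10 was thus near the background. The log2 fold changes of these 10 rows over control ran from -0.20 to 0.87 in nano_high, from -0.58 to 0.67 in nano_low and from -0.19 to 0.85 in silica. The value of Wnt-2b was below the low end of each of these ranges. The highest in nano_high was wnt-10b, with 3.17 ± 1.34 CPM in nano_high and 1.72 ± 0.649 CPM in control (log2 fold change 0.87, edgeR adjusted p = 0.12). Wnt-1, the best known of the family in arthropod segments, averaged 21.6 ± 10.3 CPM in nano_high and 18.4 ± 8.02 CPM in control (log2 fold change 0.23, edgeR adjusted p = 0.745). A further row, proto-oncogene wnt-1, averaged 12.1 ± 1.82 CPM in nano_high and 9.24 ± 1.62 CPM in control, and was not called either.

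Bowl g9170, the zinc finger factor, had 10.5, 11.0, 7.59, 6.89 and 8.05 CPM in nano_high, 7.57, 5.85, 7.29, 3.84 and 6.66 CPM in nano_low, 4.31, 4.97, 6.05, 4.79 and 4.94 CPM in silica, and 2.83, 3.98, 4.12, 2.51 and 3.23 CPM in control. Every nano_high and every silica library was above every control library. In nano_low 4 of 5 were, the exception being library 4 at 3.84 CPM. Counts per library were 37 to 650. Means in falling order were 8.80 ± 1.82 CPM in nano_high, 6.24 ± 1.49 CPM in nano_low, 5.01 ± 0.637 CPM in silica and 3.33 ± 0.706 CPM in control. Nano_high and nano_low overlapped, as did nano_low and silica, while silica and control did not. The log2 fold change over control was 1.40 (SE 0.20) for nano_high, the 70th highest of 7564, 0.90 (SE 0.20) for nano_low and 0.58 (SE 0.20) for silica. It was 0.50 (SE 0.19) for nano_high over nano_low and 0.81 (SE 0.19), without overlap, for nano_high over silica.

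Its relative odd-skipped-related, of the same zinc finger family, averaged 12.5 ± 3.39 CPM in nano_high, 9.40 ± 2.61 CPM in nano_low, 10.3 ± 1.96 CPM in silica and 6.85 ± 2.12 CPM in control. It was higher in nano_high than in control (log2 fold change 0.87 with an SE of 0.24, edgeR adjusted p = 0.0291). The test was not passed for nano_low (0.46, edgeR adjusted p = 0.409) or silica (0.58, edgeR adjusted p = 0.183).

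**Figure D2:**
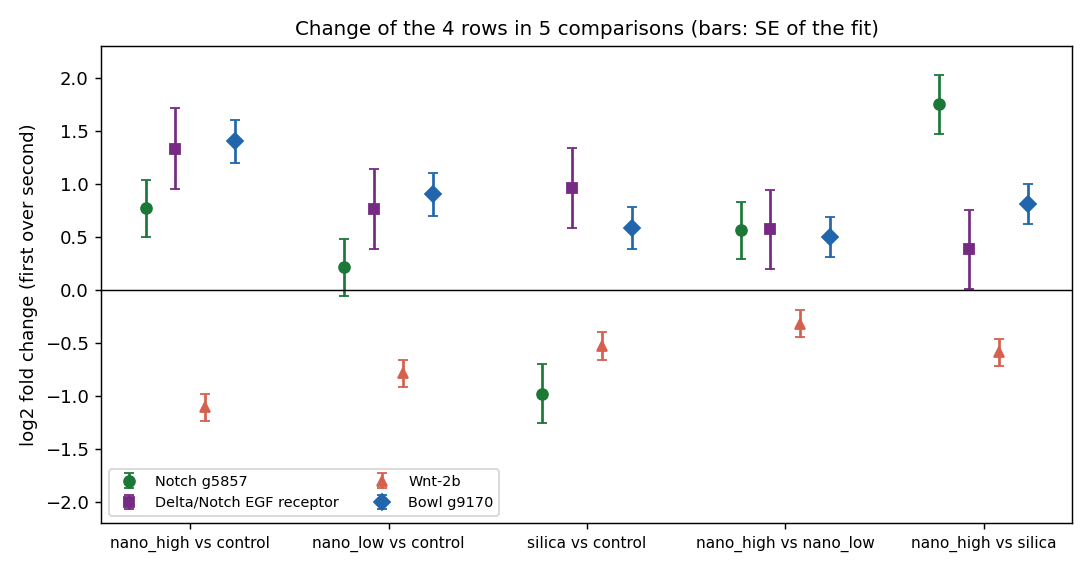
Log2 fold changes (vertical axis, first group over second) of the 4 rows in the 5 comparisons, with the SE of the edgeR fit as bars. Bowl g9170 and the Delta/Notch EGF receptor are above 0 and Wnt-2b is below 0 in all 5, while Notch g5857 runs from -0.98 in silica over control to 1.75 in nano_high over silica.

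The number of rows without overlap was 1 of 4 rows for nano_low against control (2.59% of all names), 2 of 4 for silica against control (8.69%), and 0 of 4 for nano_high against nano_low (1.18%). In that last comparison the log2 fold change was 0.56 (SE 0.27) for Notch g5857 and 0.57 (SE 0.37) for the Delta/Notch EGF receptor.

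Wnt-2b and Bowl g9170 ordered the groups in opposite directions, and their ratio within a library needs no scaling. Bowl g9170 counts per Wnt-2b count were 2.13, 2.33, 1.85, 1.24 and 1.48 in nano_high, 0.928, 1.04, 1.42, 0.671 and 1.09 in nano_low, 0.586, 0.625, 0.769, 0.685 and 0.712 in silica, and 0.288, 0.392, 0.402, 0.204 and 0.294 in control. Every exposed library was above every control library, and every nano_high library was above every silica library. Over the 20 libraries, Pearson's r between the log2 CPM of the 2 rows was -0.81, Spearman's rho -0.80, and r without the 2 farthest libraries -0.77. Between deviations from the group means r was 0.03, so the opposition was one of groups and was not seen among libraries of one group. The 2 rows were chosen with their patterns known, and no p is given for this ratio or for any correlation here.

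**Figure D3:**
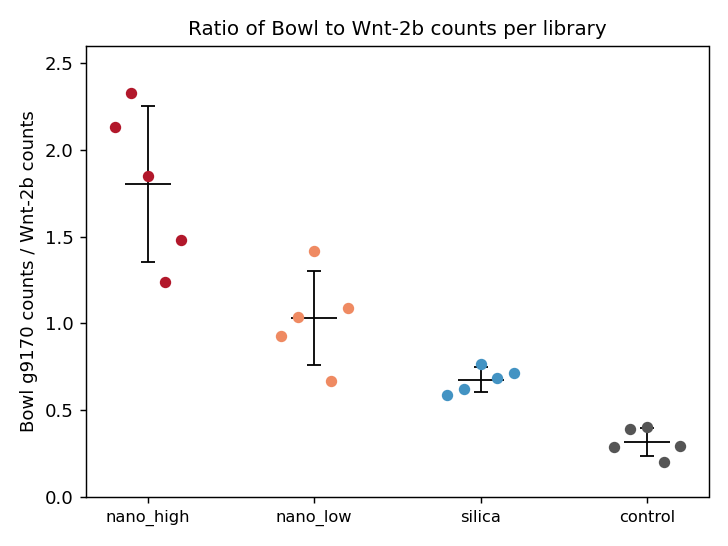
Ratio of Bowl g9170 to Wnt-2b estimated counts (vertical axis, from 0) in each library, by group, with mean and SD (n = 5). The ratio averaged 1.81 ± 0.449 in nano_high, 1.03 ± 0.272 in nano_low, 0.675 ± 0.0721 in silica and 0.316 ± 0.0821 in control.

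Beyond these rows, 115 names were grouped as Notch pathway, Wnt pathway, segmentation factors, or Hedgehog, BMP, EGF and FGF signals, and 114 could be tested. Against control, 19 were higher and 2 lower in nano_high (21 of 114, edgeR adjusted p under 0.05). Of all names, 10.1% were called, 5.17% higher and 4.89% lower. The median log2 fold change was 0.26 for the 114 names and 0.02 for all names tested. The lists were chosen with earlier results of these data known, so the difference from all names can come in part from the choice. For nano_low and silica against control, 0 of the 114 were called, where 0.621% and 0.701% of all names were. At an unadjusted p under 0.05 there were 16 names for nano_low (14% of the 114, against 14.1% of all names) and 23 for silica (20.2%, against 23.2% of all names). DESeq2 called 3 for nano_low (2.63%, against 3% of all names) and 8 for silica (7.02%, against 5.27% of all names), so these counts were near the background.

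In the Notch list, 5 of 26 names rose in nano_high and 0 fell. Mastermind, a coactivator of the cut receptor, averaged 105 ± 22.7 CPM in nano_high and 65.4 ± 12.3 CPM in control (log2 fold change 0.68 with an SE of 0.16, edgeR adjusted p = 0.0154). Suppressor of Hairless, the DNA-binding partner, averaged 17.2 ± 3.87 CPM in nano_high and 11.2 ± 1.94 CPM in control (0.62, edgeR adjusted p = 0.0254). Enhancer of split mgamma, of the repressors that Notch switches on in flies, averaged 25.4 ± 9.23 CPM in nano_high and 13.9 ± 3.50 CPM in control (0.87, edgeR adjusted p = 0.0461). Other nuclear names of the list were not called, among them hairless, the corepressor interacting with rbpj, groucho and hes-1, which are named here after their values were seen. The neurogenic locus notch protein, another receptor name, averaged 270 ± 49.2 CPM in nano_high and 167 ± 30.1 CPM in control (0.69, edgeR adjusted p = 0.0302). Numb, which in flies holds Notch back in one daughter of a dividing cell, averaged 91.0 ± 16.5 CPM in nano_high and 65.6 ± 6.22 CPM in control (0.47, edgeR adjusted p = 0.0282). The ligand rows were not called, with neurogenic locus protein delta at 34.6 ± 9.91 CPM in nano_high and 34.5 ± 12.0 CPM in control, and jagged-1 at 21.4 ± 5.92 CPM in nano_high and 14.3 ± 1.45 CPM in control. The row neurogenic locus protein delta precursor, not called either, averaged 34.2 ± 23.6 CPM in nano_high and 25.7 ± 16.2 CPM in control.

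In the Wnt list, 8 of 35 names rose in nano_high and 1 fell. Transcription factor 7 1-a, named after the TCF partners of beta-catenin, averaged 46.1 ± 4.27 CPM in nano_high and 27.8 ± 3.75 CPM in control (log2 fold change 0.73 with an SE of 0.12, edgeR adjusted p = 0.00194). The names for Axin, APC and GSK-3, of the complex that destroys beta-catenin, were higher as well. Axin-1 averaged 106 ± 11.1 CPM in nano_high and 78.5 ± 8.25 CPM in control (0.43, edgeR adjusted p = 0.0135), and the adenomatous polyposis coli protein averaged 133 ± 13.6 CPM in nano_high and 100 ± 9.91 CPM in control (0.40, edgeR adjusted p = 0.0103). Glycogen synthase kinase-3 beta, the kinase of that complex, averaged 91.8 ± 9.65 CPM in nano_high and 72.7 ± 7.03 CPM in control (0.34, edgeR adjusted p = 0.0162). Tankyrase-1, which marks Axin for breakdown, averaged 70.0 ± 7.56 CPM in nano_high and 46.4 ± 7.30 CPM in control (0.59, edgeR adjusted p = 0.00959). The names that rose thus include proteins known to act for the signal and against it. Glypican-6, a cell surface proteoglycan, averaged 43.0 ± 3.34 CPM in nano_high and 29.1 ± 4.69 CPM in control (0.56, edgeR adjusted p = 0.00489). The name that fell was secreted frizzled-related protein, a soluble antagonist that binds Wnt proteins, at 13.9 ± 2.53 CPM in nano_high and 22.7 ± 6.22 CPM in control (-0.70, edgeR adjusted p = 0.0392). The receptor frizzled-2 missed the threshold, with 232 ± 27.3 CPM in nano_high and 189 ± 7.91 CPM in control (0.29, edgeR adjusted p = 0.0573). The armadillo rows, named after beta-catenin, were not called and went opposite ways. Armadillo averaged 600 ± 46.8 CPM in nano_high and 505 ± 57.7 CPM in control, and armadillo g708 averaged 113 ± 11.9 and 127 ± 13.9 CPM. Casein kinase i (310 ± 33.3 and 288 ± 20.7 CPM) and dishevelled dvl-3 (104 ± 15.7 and 105 ± 18.0 CPM) were not called. These rows were named after their values were seen.

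**Figure D4:**
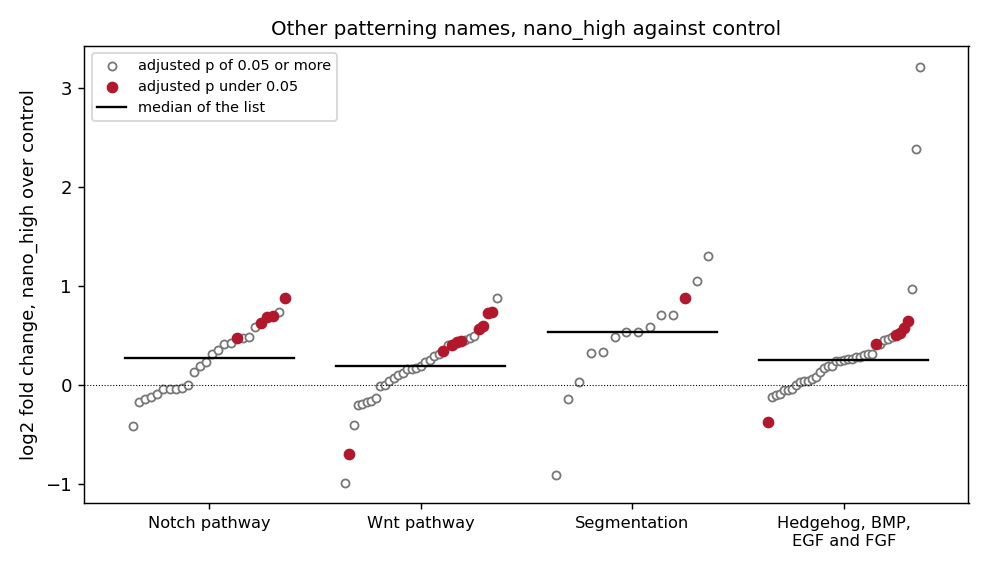
Log2 fold change of nano_high over control (vertical axis) for the 114 tested names of the 4 lists, sorted within each list. Filled points have an adjusted p under 0.05, and the bar is the median, at 0.27 for Notch, 0.19 for Wnt, 0.53 for segmentation and 0.25 for the other signals.

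Only 9 of these 21 calls held when each nano_high and control library was left out in turn, among them Mastermind, transcription factor 7 1-a, axin-1, the adenomatous polyposis coli protein, tankyrase-1 and glypican-6. Suppressor of Hairless held in 6 of these 10 fits, the neurogenic locus notch protein in 5, Numb, odd-skipped-related and secreted frizzled-related protein in 4 each, and Enhancer of split mgamma in 2. The count of calls was 10 without library 2 of nano_high, 10 without library 3 of nano_high, 11 without library 3 of control and 13 without library 4 of control. It was 9 in a fit on the 2 groups alone and 36 with the first component as a covariate. Names taken as long and as short proteins differed in their changes, though no length was measured. Of 26 names taken as long proteins, all 26 had a positive log2 fold change in nano_high over control, with a median of 0.39, and of 27 taken as short 8 had, with a median of -0.28. The medians of long and short names were 0.17 and -0.21 for nano_low over control and 0.32 and -0.12 for silica over control. These size lists were drawn up after values were seen, so the split can come from the picking. The part of protein size in the result was not tested.

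Against silica, nano_high had 5 pathway names higher and 2 lower (7 of 114, 6.14%). Of all names 5.35% were called, 2.37% higher and 2.99% lower, so the count was near the background. The 5 higher names were notch, given above, o-glucosyltransferase rumi, which adds glucose to Notch (log2 fold change 0.52, edgeR adjusted p = 0.0277), Suppressor of Hairless (0.68, edgeR adjusted p = 0.0285), c-terminal-binding protein, a corepressor (0.41, edgeR adjusted p = 0.0404), and transcription factor 7 1-a (0.49, edgeR adjusted p = 0.0277). Secreted frizzled-related protein was lower, at 13.9 ± 2.53 CPM in nano_high and 25.5 ± 5.88 CPM in silica (-0.88, edgeR adjusted p = 0.0257), as was the acidic fibroblast growth factor intracellular-binding protein (-0.44, edgeR adjusted p = 0.0278). Of the 7 calls, 0 held in every fit that left out 1 library, and the count was 0 without library 2 or 5 of nano_high or library 1 or 4 of silica. It was 2 without library 4 of nano_high or library 5 of silica, 4 without library 2 of silica, and 11 without library 1 of nano_high. Between the polymer concentrations, 0 of the 114 names and 0 of all 7564 were called (0%), with 8 of the 114 at an unadjusted p under 0.05 (7.02%, against 6.76% of all names) and 0 called by DESeq2.

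The first component divided the rows. Pearson's r with it, over 20 libraries, was -0.60 for Notch g5857, 0.35 for the Delta/Notch EGF receptor, -0.34 for Wnt-2b and 0.06 for Bowl g9170. For the row notch it was -0.83, and for delta and notch epidermal growth 0.96. Wnt-2b followed the component within the groups, with r = -0.74 between deviations from group means. In control its libraries 4 and 5 had 12.3 and 11.0 CPM, and the 3 others 10.1 ± 0.233 CPM, while library 1 of nano_low had 8.16 CPM and the 4 others 5.66 ± 0.404 CPM. Without the 5 libraries below -30, the log2 fold changes of all 20 row and comparison pairs kept their sign. Of the 21 names called in nano_high against control, 13 were still called in that fit, transcription factor 7 1-a and tankyrase-1 among them, and of the 7 against silica 0. In that fit the edgeR adjusted p was 0.0972 for Mastermind, 0.069 for Suppressor of Hairless, 0.202 for Enhancer of split mgamma and 0.0734 for the neurogenic locus notch protein. Of the Wnt names, it was 0.117 for axin-1, 0.0688 for the adenomatous polyposis coli protein, 0.0558 for glypican-6 and 0.0751 for secreted frizzled-related protein.

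**Figure D5:**
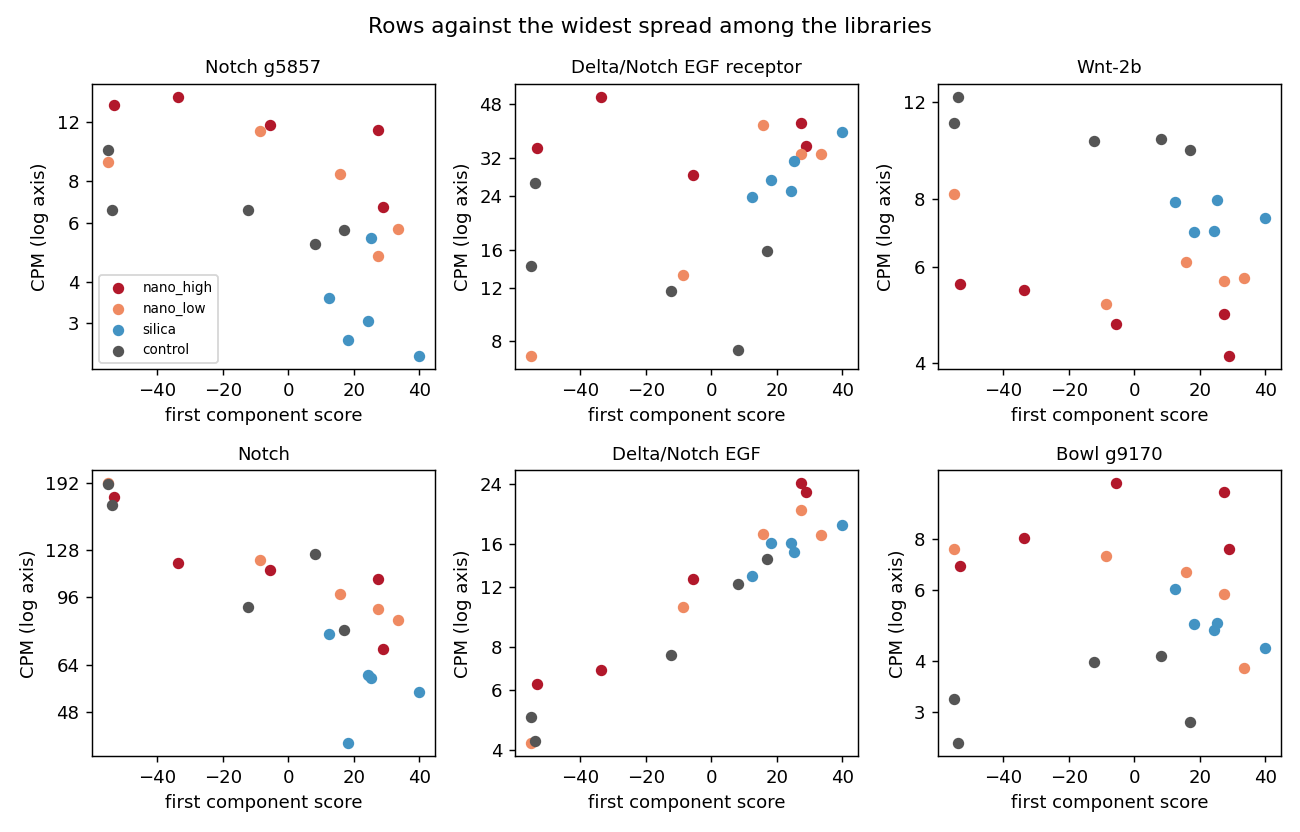
CPM (vertical axes, log scale) of 6 rows against the first component score of each library (horizontal axes), coloured by group. Notch and Notch g5857 fall towards the positive end (r = -0.83 and -0.60), delta and notch epidermal growth rises (r = 0.96), and Bowl g9170 has no trend (r = 0.06).

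Sums of yolk and germline, cell cycle, collagen and cuticle names moved along with some rows. The summed CPM of 11 yolk and germline names, 10 of them tested, ran from 20881 to 141060 in nano_high, from 14858 to 63064 in nano_low, from 10626 to 28705 in silica and from 27996 to 80721 in control. Its log2 had r = 0.68 with Notch g5857 and 0.77 with notch over 20 libraries, both of them lowest in silica. The cell cycle sum had r = 0.57 with Notch g5857 and 0.61 with notch. The collagen sum had r = -0.50 with Notch g5857, -0.74 with notch and 0.96 with delta and notch epidermal growth, and with Wnt-2b r was -0.41, or -0.72 between deviations from group means. Wnt-2b had r = 0.15 with yolk and germline and 0.13 with cell cycle, or 0.59 and 0.64 between deviations from group means. The Delta/Notch EGF receptor had r = -0.25 with yolk and germline, -0.10 with cell cycle, 0.47 with collagen and 0.37 with cuticle. Bowl g9170 had r = 0.11 with yolk and germline, 0.14 with cell cycle, 0.08 with collagen and -0.40 with cuticle. Between deviations from group means, r with cuticle was 0.59 for the receptor and -0.62 for Bowl g9170. The 19 cell cycle names, 18 of them tested, summed to 859 to 2512 CPM in nano_high, 949 to 1636 CPM in nano_low, 885 to 1175 CPM in silica and 1076 to 1454 CPM in control. The 39 cuticle names, 38 of them tested, summed to 5498 to 9062 CPM in nano_high, 5343 to 12875 CPM in nano_low, 5188 to 13828 CPM in silica and 5974 to 11452 CPM in control. The 26 collagen names, 25 of them tested, summed to 3702 to 11995 CPM in nano_high, 2231 to 13141 CPM in nano_low, 7645 to 16743 CPM in silica and 2875 to 10131 CPM in control. In each list the groups overlapped, and for yolk and germline the highest silica library was just above the lowest control library. The part of what these lists stand for in the results was not tested. Every nano_high library was deeper than every control library, and thinning the deeper libraries to 7912464 counts, the rounded total of the shallowest, gave log2 fold changes over control of 0.77 for Notch g5857, 1.34 for the Delta/Notch EGF receptor, -1.22 for Wnt-2b and 1.47 for Bowl g9170.

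The names whose log2 CPM was most like each row over 20 libraries were searched among 6821 names, and each value is the highest or lowest of that search. For Notch g5857 they were negative elongation factor a (r = 0.88), fatty acid-binding protein (0.88), pre-mrna 3'-end-processing factor fip1 (0.87) and 40s ribosomal protein s4/arp2_g5907 (0.87), and the most opposed was mitochondrial manganese superoxide dismutase (-0.88). For the Delta/Notch EGF receptor they were dumpy (0.91), vacuolar protein sorting-associated protein 13d (0.91), cg32373 (0.90) and fragile site-associated protein/arp2_g3059 (0.90), and the most opposed was leukocyte cysteine proteinase inhibitor (-0.84). Dumpy is a giant extracellular protein that ties epidermis to cuticle in flies. Wnt-2b was nearest to 30s ribosomal protein s8/arp2_g2243 (0.96), eukaryotic translation initiation factor 1a, x-chromosomal (0.94), calpain-7 (0.93) and elongation factor 1 beta/arp2_g1903 (0.93), and most opposed to a sodium/potassium-transporting ATPase alpha subunit, arp2_g175 (-0.93). Its closest name, the ribosomal protein, averaged 29.7 CPM in nano_high, 40.1 CPM in nano_low, 62.6 CPM in silica and 98.5 CPM in control, the same order of groups as Wnt-2b. Bowl g9170 was nearest to sh3 domain-containing ring finger protein (0.84), cyclin dependent kinase 19 variant (0.83), fork head domain transcription factor slp2 (0.81), named after a pair-rule factor of flies, and transcription factor 7 1-a (0.80), and most opposed to galectin-2 (-0.86). Slp2 averaged 8.91 CPM in nano_high, 6.19 CPM in nano_low, 5.54 CPM in silica and 4.22 CPM in control, again the order of groups of Bowl g9170. Both names were picked for their r over the same libraries, so a shared order of groups is no separate result. Between deviations from group means r was 0.68 for the ribosomal protein with Wnt-2b. With Bowl g9170 it was 0.57 for slp2, 0.44 for the sh3 name, 0.32 for the kinase variant and 0.26 for transcription factor 7 1-a.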

How the data were processed

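Per protein description, the deposited table gives estimated counts that the authors made with Salmon 0.12.0 and R 3.4.3, per the submitters' processing notes. Library preparation used poly-A selection and a stranded kit, per the labels' protocols. The reference and annotation, and how transcripts became names, were not given in the sources used here, and rows of one family may share reads. The table is called normalized, but totals differed between libraries and the values were treated as counts. Names reaching 1 in 5 or more libraries were tested (7564, with 220 left out), values were rounded, and edgeR 4.0.16 in R 4.3.3 fitted group means to all 20 libraries after TMM scaling. The quasi-likelihood test was two-sided, adjusted by Benjamini-Hochberg over 7564 names and names under 0.05 are said to be called. The components were computed from log2 CPM (prior count 2). The fit was tested on simulated data. DESeq2 1.42.0 and limma 3.58.1 served as alternatives, beside other scalings and filters, thinning, left-out libraries, a replicate block and the first component as covariate. Python 3.11.15 made summaries and figures. Depth sets precision: counts of the 4 rows ran from 20 to 2966 per library.

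The members and lists were chosen with earlier results of these data known. Unless said otherwise, names given come from the 4 rows, rows of the same description or holding notch, Delta, Serrate, Wnt, Frizzled or odd-skipped words, at most 6 called names per list, comparison and direction by smallest p, and per row the 4 names of highest and 1 of lowest r among names with a mean of at least 1 CPM. None of the 4 rows matched a symbol of the reference table (0 of 4), so positions and sequences are not used here. In all, 6 names were left out of the lists because they matched by wording only.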

Additional observations from a re-analysis of the deposited data

Results flagged for a closer look

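In 180 groups of 5 libraries (45 rows in 4 groups), 6 had a library far from the other 4, where chance gives about 1 in 20, or 9. None was among the 4 rows described first. In control, wnt-7a stood at 4.34 CPM in library 3, with the others at 9.09 to 10.8 CPM, and frizzled-2 stood at 203 CPM in library 5, with the others at 183 to 188 CPM. In nano_low, vang protein 2, a planar polarity protein, stood at 28.7 CPM in library 1, which also lay low on the first component, with the others at 42.2 to 45.1 CPM. In silica, strawberry notch stood at 28.1 CPM in library 5, with the others at 22.0 to 23.4 CPM. The epidermal growth factor receptor substrate 15 1 stood at 46.3 CPM in the same library, with the others at 38.2 to 40.3 CPM. Wnt-10b stood at 2.51 CPM in library 1 of silica, with the others at 3.16 to 3.41 CPM.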

How the results depend on the processing

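Of 420 values of the 4 rows under alternatives, 417 moved by less than the spread between replicates, 0 reversed and 3 moved more, all with the first component as covariate: Notch g5857 in silica over control at -0.57, and Wnt-2b at -0.34 in silica over control and -0.72 in nano_high over silica. That spread is a wide yardstick for some values. It was 0.89 for the Delta/Notch EGF receptor in nano_low over control, more than the value of 0.76 itself. A move to 1.39 without the libraries below -30 was thus within it. The counts of pathway names called were less steady, and the cause was not tested. For nano_high against control (21) the count was 36 with the first component and 9 in the 2 groups alone, and 10 to 28 leaving out 1 library. For nano_high against silica (7) it was 17 with DESeq2, 12 with the first component, 4 after thinning, 0 in the 2 groups alone, 0 without the libraries below -30, and 0 to 11 leaving out 1 library. For nano_low against control (0) it was 3 with DESeq2, 1 with limma and 4 with the first component, and 0 to 4 leaving out 1 library, 4 without library 1 of nano_low and 1 without library 1 of control. For silica against control (0) it was 8 with DESeq2, 1 with limma, 8 in the 2 groups alone and 1 after thinning, and 0 to 2 leaving out 1 library, the 2 without library 1 of control. Nano_high against nano_low stayed at 0 in every alternative run. Upper-quartile scaling moved the median of the 114 names in nano_high over control to 0.19 and that of all names to -0.05.

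Replicate numbers are shared between groups, and little sign of pairing was seen: 8 of 30 same-numbered pairs had a correlation of deviations over 0.1, and 3 of 20 libraries correlated best with their own number. The median correlation was 0.013 for same-numbered pairs and 0.00261 for other pairs. This check cannot settle whether libraries of one number shared a block. With the replicate block the counts were 17 for nano_high against control, 3 for nano_high against silica, and 0 for the other comparisons. Depth limits Notch g5857, Wnt-2b and Bowl g9170, which had as few as 20, 50 and 37 counts in a library.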

Other observations

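In the Hedgehog, BMP, EGF and FGF list, 5 of 39 names rose and 1 fell in nano_high against control (15.4%, where 10.1% of all names were called), with a median of 0.25. Patched, the Hedgehog receptor, averaged 47.3 ± 8.54 CPM in nano_high and 32.0 ± 5.70 CPM in control (log2 fold change 0.57 with an SE of 0.15, edgeR adjusted p = 0.0216), and cubitus interruptus, the transcription factor at the end of that pathway, averaged 142 ± 18.1 CPM in nano_high and 91.2 ± 16.3 CPM in control (0.64, SE 0.14, edgeR adjusted p = 0.00736). Sprouty, an inhibitor of receptor tyrosine kinase signalling, averaged 25.8 ± 4.54 CPM in nano_high and 18.0 ± 3.28 CPM in control (0.52, SE 0.15, edgeR adjusted p = 0.033). The epidermal growth factor receptor substrate 15 1 averaged 46.5 ± 5.95 CPM in nano_high and 32.8 ± 3.75 CPM in control (0.50, edgeR adjusted p = 0.00546), and rhomboid 5 averaged 50.5 ± 7.94 CPM in nano_high and 38.1 ± 3.84 CPM in control (0.41, edgeR adjusted p = 0.034). The name that fell was the acidic fibroblast growth factor intracellular-binding protein, at 12.5 ± 0.925 CPM in nano_high and 16.2 ± 2.6 CPM in control (-0.38, edgeR adjusted p = 0.0337). When each library was left out in turn, cubitus interruptus and the receptor substrate held in 10 of 10 fits, patched in 6, sprouty in 5, rhomboid 5 in 4 and the intracellular-binding protein in 3.

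Of the 14 segmentation names, odd-skipped-related alone passed in nano_high against control (7.14%, where 10.1% of all names were called). The log2 fold change was positive for 12 of the 14 and negative for 2, where it was positive for 3974 of all 7564 names. Some of the 14 were near the floor, such as pax-7/arp2_g1426 at 0.0723 CPM in nano_high and 0.0637 CPM in control. Twist-related protein, at 12.1 ± 16.2 CPM in nano_high and 5.81 ± 4.53 CPM in control, reached 40.6 CPM in its highest nano_high library. Segmentation protein runt, a pair-rule factor in flies, averaged 25.9 ± 5.00 CPM in nano_high and 17.9 ± 2.83 CPM in control (0.53, SE 0.17, edgeR adjusted p = 0.0515), and homeobox protein engrailed-1, of the segment boundary factors, averaged 16.3 ± 5.21 CPM in nano_high and 10.9 ± 2.73 CPM in control (0.58, SE 0.24, edgeR adjusted p = 0.137). Paired box protein pax-1 was lower in the mean, at 3.63 ± 0.338 CPM in nano_high and 4.05 ± 0.85 CPM in control, and was not called. Runt, engrailed-1, pax-1, pax-7/arp2_g1426 and twist were named after their values were seen.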
